A study of Mus musculus with 12 samples.

Results

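The long-range contacts of the Ets1 promoter were examined on mouse chromosome 9, in the 10 kb windows whose midpoint lies more than 1 Mb from the viewpoint at 32703000 (mm10), on both sides and to the ends of the chromosome. The members were chosen by position alone. They were 6424 of the 8207 windows listed for the Ets1 promoter, and of 17305 windows listed for the 3 viewpoints of the series. Windows step by 1 kb and so overlap. To count nothing more than once, values were summed over windows that start at multiples of 10 kb, which left 663 far windows of 839. Up to the ends of the chromosome 11947 such far positions were possible, so 5.55% of them were listed.

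Contacts were measured by 4C-seq, which the study used to look at single loci beside its genome-wide contact maps. Fixed chromatin is cut with DpnII, religated, cut with Csp6I and religated again, and all fragments joined to the viewpoint are amplified and sequenced. The embryonic stem (ES) cells were of the V6.5 line, a mouse ES cell line grown in 2i medium, which holds the cells in a uniform pluripotent state (2 libraries). The mouse embryonic fibroblasts (MEFs) were prepared from rtTA3-OKSM embryos of stage E13.5, heterozygous for the Oct4-GFP reporter, the OKSM cassette of reprogramming factors and rtTA3, and were cultured in DMEM with no inducer named (2 libraries). The ES line is 1 established line, and no expression was measured here, so neither cell type could be checked against its markers. Cell type, genotype and medium differ together between the groups and cannot be told apart. The labels do not tie the replicates to separate cultures. The spread that a p-value rests on is therefore that of these libraries alone and may be technical.

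Ets1 encodes a transcription factor of the ETS family, which is active in mesenchymal and lymphoid cells among others. In any 4C experiment, contact frequency falls steeply with distance along the chromosome. Beyond the domain that holds the viewpoint, what remains mostly follows the division of the nucleus into active, gene-rich compartments and inactive, gene-poor ones, and single far contacts are rare and thinly sampled.

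The sites named below include 5 bins of 100 kb that differed between ES cells and MEFs (tested further on). DpnII cuts at GATC, and only fragments that end at such a site can be seen. All promoter entries of RefSeq (GRCm38.p6) inside those 5 bins are shown, each running from 250 bases before to 50 after a transcription start, with GATC in capitals. They came from 3 of the bins, at Gm31408 (higher in ES cells) and at Septin7 and Cdon (higher in MEFs).
Gm31408 (chr9:31559448-31559747, + strand): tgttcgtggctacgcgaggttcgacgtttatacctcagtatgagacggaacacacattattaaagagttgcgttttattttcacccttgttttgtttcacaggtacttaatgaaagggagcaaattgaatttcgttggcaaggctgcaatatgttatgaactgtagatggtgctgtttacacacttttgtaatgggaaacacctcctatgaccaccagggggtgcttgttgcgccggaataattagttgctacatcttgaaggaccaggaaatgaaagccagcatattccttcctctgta
Septin7 upstream entry (chr9:25251741-25252040, + strand): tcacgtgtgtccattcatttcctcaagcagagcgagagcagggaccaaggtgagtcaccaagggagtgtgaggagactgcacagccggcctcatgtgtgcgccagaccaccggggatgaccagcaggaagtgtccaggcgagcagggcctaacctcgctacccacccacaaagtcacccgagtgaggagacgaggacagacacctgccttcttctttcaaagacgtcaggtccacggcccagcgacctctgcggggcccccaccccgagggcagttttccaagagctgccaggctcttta
Septin7 downstream entry (chr9:25252642-25252941, + strand): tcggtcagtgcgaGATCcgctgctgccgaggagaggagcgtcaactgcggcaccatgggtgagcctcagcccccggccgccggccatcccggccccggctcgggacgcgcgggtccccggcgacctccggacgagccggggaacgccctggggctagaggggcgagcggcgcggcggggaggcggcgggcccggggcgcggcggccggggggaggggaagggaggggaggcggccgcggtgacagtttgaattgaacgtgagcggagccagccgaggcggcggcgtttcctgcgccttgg
Cdon (chr9:35451826-35452125, + strand): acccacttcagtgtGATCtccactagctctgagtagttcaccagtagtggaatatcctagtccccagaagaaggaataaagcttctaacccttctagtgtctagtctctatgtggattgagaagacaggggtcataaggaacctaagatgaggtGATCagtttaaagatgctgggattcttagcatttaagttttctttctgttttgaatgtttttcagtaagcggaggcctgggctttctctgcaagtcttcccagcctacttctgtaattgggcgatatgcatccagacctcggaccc
GATC is its own reverse complement, so 1 search covers both strands. The letters GATC were found 2 times in the Cdon entry, 1 time in the downstream Septin7 entry, and not in the upstream Septin7 entry or that of Gm31408. The Cdon entry lies inside the gene, which runs from 35421528 to 35507652, and does not cover the outer start of the gene. Of 1917 promoter entries on chromosome 9, 47.2% hold GATC. A missing site says only that these letters are not in this window.

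Values are counts per 1000 of a library total, which was 70629 for ES replicate 1, 206874 for ES replicate 2, 13629 for MEF replicate 1 and 29638 for MEF replicate 2. One count was thus worth between 0.00483 and 0.0734 per 1000. Beyond 1 Mb the 4 libraries held 8482, 23649, 1812 and 4037 counts, in that order. The deposited table lists a window only where at least 3 of the 4 libraries have counts. In the far windows this condition mattered: 1659 of 6424 (25.8%) had counts in all 4 libraries, against 77.2% of the windows within 1 Mb. MEF replicate 1 lacked counts in 2809 far windows, MEF replicate 2 in 1309, ES replicate 1 in 511 and ES replicate 2 in 136. Far windows contacted in 1 cell type alone were therefore not analysed here. The listed windows held 65.8% and 64.5% of the library totals in ES cells, against 77.1% and 77.2% in MEFs, so each comparison below names its denominator. Far counts came in clumps: where the count changed from a window to the next, the median change was 5 and 9 counts in the ES libraries and 3 counts in each MEF library. Counting intervals treat counts as independent and are therefore too narrow.

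The far contacts did not decline evenly with distance. On the higher-coordinate side, contact was high from 1 Mb out to nearly 3 Mb. From the bin at 2.85 Mb to the next it fell from 2.46, 1.99, 0.587 and 2.19 counts per 1000 (ES replicates first) to 0.255, 0.435, 0.293 and 0.337. MEF replicate 1 had fallen 1 bin earlier, from 4.33 to 0.587. The stretch from Kirrel3, which encodes a synaptic adhesion protein, to Hyls1, a gene of cilium assembly, had 100 of 110 windows listed. It held 2.96, 3.27, 3.64 and 3.17 counts per 1000 per 100 kb (ES replicates 1 and 2, then MEF replicates 1 and 2). The next stretch, from the Pate genes to Acrv1, had 11 of 110 windows listed and held 0.0850, 0.0940, 0.127 and 0.0798. The 14 Pate genes there encode small secreted proteins of the male reproductive tract, and Acrv1 a protein of the sperm acrosome. The fall from the first stretch to the second was 34.9-fold, 34.8-fold, 28.7-fold and 39.7-fold. Both ES and MEF libraries showed it at a like size, and the groups overlapped.

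Beyond the Pate genes contact returned. From Chek1, which encodes a checkpoint kinase, to Panx3, a pannexin channel gene, 48 of 98 windows were listed, with 0.621, 0.508, 1.13 and 1.01 counts per 1000 per 100 kb. That was 7.31, 5.40, 8.92 and 12.6 times the level over the Pate genes, which lie nearer to the viewpoint. Both MEF libraries were above both ES libraries here, by 1.89-fold in the means. The cluster of 92 olfactory receptor genes that follows had 11 of 242 windows listed, at 0.0527, 0.0392, 0.0273 and 0.112. The MEF libraries lay on both sides of the ES libraries there. The ends of these stretches were chosen after the profile was seen, so no test is given for them.

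On the lower-coordinate side contact was less even. From Snx19, a sorting nexin gene, to Tmem45b the 4 libraries held 1.52, 1.42, 1.42 and 1.21 counts per 1000 per 100 kb, in 62 of 105 windows. Over Ntm and Opcml, large neighbouring genes of neural cell adhesion molecules, they held 0.321, 0.244, 0.226 and 0.308, in 48 of 230 windows. The groups overlapped over Ntm and Opcml.

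**Figure D1:**
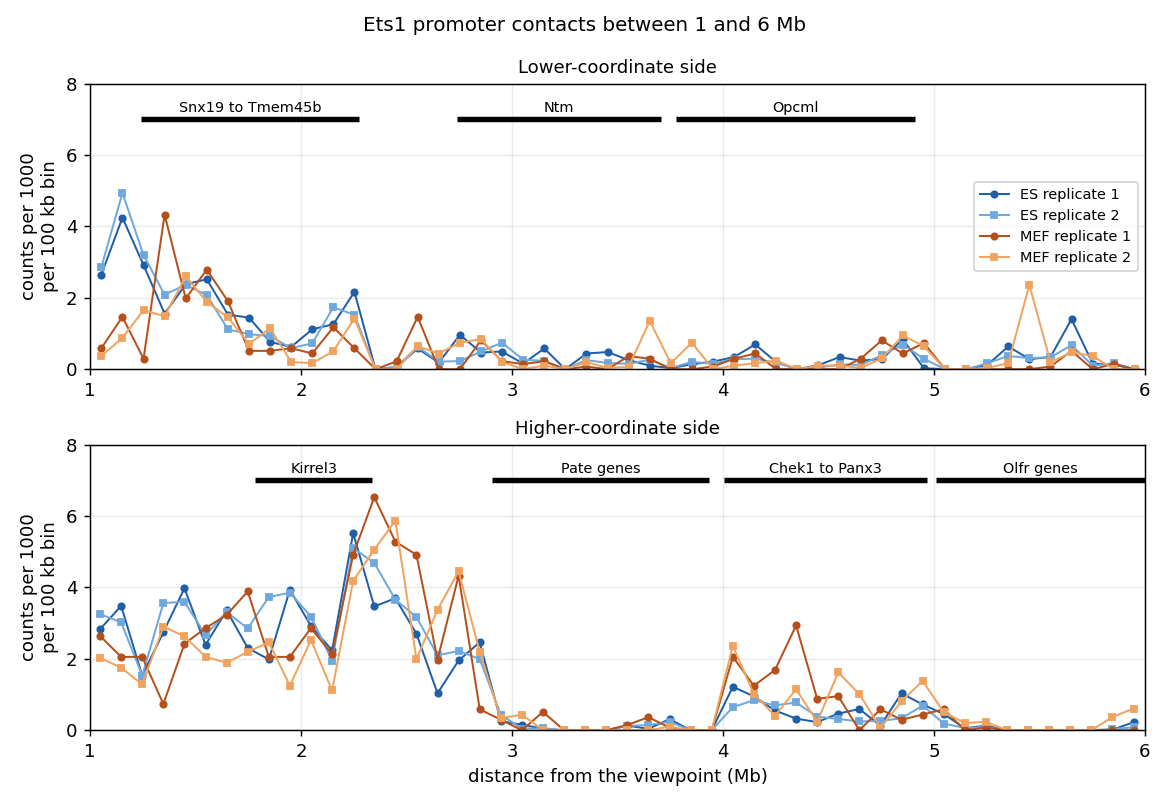
Counts per 1000 (y axis) in bins of 100 kb against distance from the viewpoint in Mb (x axis), on the lower-coordinate side (top) and the higher-coordinate side (bottom); each line is 1 library and black bars mark genes. All 4 libraries stay at 0.587 or more up to 2.85 Mb on the higher side, fall to near 0 over the Pate genes and rise again from Chek1 to Panx3.

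Far windows held almost the same part of the listed counts in all 4 libraries, but ES cells and MEFs spread it differently over distance. Beyond 1 Mb lay 18.2% and 17.7% of the listed counts in ES cells, against 17.2% and 17.6% in MEFs. The means were 18.0% ± 0.37 and 17.4% ± 0.28 (SD, n = 2 each), and the 95% Wilson intervals of ES replicate 2 (17.5% to 17.9%) and MEF replicate 2 (17.2% to 18.1%) overlapped. This difference of 0.544 percentage points turned to -1.74 over the library totals, where far windows held 12.0% and 11.4% in ES cells, against 13.3% and 13.6% in MEFs. It also turned to -0.92 among windows with counts in all 4 libraries and to -2.61 with the boundary at 2 Mb, so no order of the groups is given for it.

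From 1 to 5 Mb, ES cells held more: 14.4% and 15.1% of the listed counts against 12.2% and 10.98% in MEFs. Both ES libraries were above both MEF libraries, by 3.18 percentage points in the means. Beyond 5 Mb the order was opposite, with 3.80% and 2.63% in ES cells, against 5.04% and 6.66% in MEFs, a difference of -2.63. The groups did not overlap in either zone. The exact permutation test gave p = 0.333 (two-sided) for both, which is the smallest value that 2 libraries against 2 can give. Over the library totals, ES cells held 1.08 times the MEF level at 1 to 5 Mb, and MEFs held 2.15 times the ES level beyond 5 Mb. The log2 ratio of counts from 1 to 5 Mb over counts beyond 5 Mb was 1.93 and 2.52 in ES cells, against 1.27 and 0.72 in MEFs (exact permutation p = 0.333).

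The size of these differences rests on how windows enter the table. When all libraries were set to the shallowest depth by expectation and the 3-of-4 condition was applied again, ES cells held 1.92% and 1.70% beyond 5 Mb and MEFs 2.29% and 2.91%, a smaller difference of -0.79. When changes of the count between neighbouring windows were counted in place of counts, the order beyond 5 Mb reversed, to 7.97% and 10.2% in ES cells, against 5.34% and 5.72% in MEFs. Among windows with counts in all 4 libraries the difference from 1 to 5 Mb turned to -0.14. At the Mycn viewpoint of the same cell types, beyond 5 Mb lay 2.35% and 2.21% of the listed counts in ES cells against 3.14% and 2.21% in MEFs, and the difference between the viewpoints was not tested.

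The sides were unequal too. Between 1 and 5 Mb the higher-coordinate side held 15.4 and 16.4 counts per 1000 per Mb in ES cells, against 17.5 and 15.5 in MEFs. The lower side held 8.35 and 7.91 in ES cells, against 6.02 and 5.66 in MEFs. The ratio of higher over lower was thus 1.85 and 2.07 in ES cells, against 2.91 and 2.75 in MEFs, and the groups did not overlap. Beyond 5 Mb the lower side spans 24.7 Mb and the higher side 86.8 Mb, so they were set side by side only at matched distance. At 5 to 10 Mb the lower side held 1.19, 0.975, 1.38 and 1.71 counts per 1000 per Mb and the higher side 0.680, 0.618, 1.17 and 1.70. At 20 to 50 Mb the lower side held 0.168, 0.0817, 0.204 and 0.139 and the higher side 0.164, 0.0843, 0.271 and 0.321. Of all far counts, 37.4% and 35.1% lay on the lower side in ES cells, against 30.7% and 33.04% in MEFs (difference 4.33 percentage points, exact permutation p = 0.333). Among windows with counts in all 4 libraries this difference turned to -2.85.

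**Figure D2:**
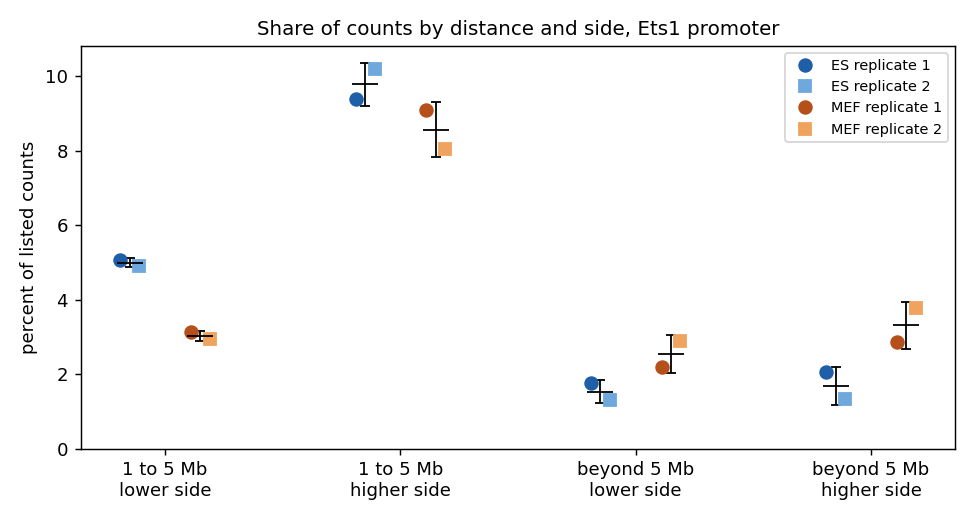
Percent of the listed counts (y axis) in the 4 zones of distance and side (x axis); points are libraries, and bars are means with SD (n = 2 each). ES libraries are above MEF libraries at 1 to 5 Mb on the lower side (5.07% and 4.91% against 3.12% and 2.93%) and below them beyond 5 Mb on either side.

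The ES excess lay at 1 to 2 Mb on both sides and at 2 to 3 Mb on the lower side. At 1 to 2 Mb on the lower side, ES cells held 3.13% and 3.28% of the listed counts and MEFs 1.94% and 1.60%, a 1.81-fold difference of the means. At 1 to 2 Mb on the higher side they held 4.34% and 4.87% against 3.11% and 2.65%, 1.60-fold. At 2 to 3 Mb on the lower side they held 1.11% and 0.986% against 0.638% and 0.642%, 1.64-fold. At 2 to 3 Mb on the higher side, where the stretch from Kirrel3 to Hyls1 lies, the groups overlapped (3.99% and 4.42% against 4.39% and 4.03%). From 4 to 5 Mb on the higher side MEFs held more, 1.44% and 1.30% against 0.945% and 0.805%. At 5 to 10 Mb the groups overlapped on the lower side (0.906% and 0.756% against 0.895% and 1.11%), and on the higher side MEFs held 1.87 times the ES share, without overlap. At 10 to 20 Mb MEFs held 2.58 times the ES share on the lower side and 2.10 times on the higher side, and the groups overlapped on neither side. At 20 to 50 Mb they overlapped on the lower side (0.247% and 0.123% against 0.257% and 0.175%), and on the higher side MEFs held 2.02 times the ES share, without overlap. Beyond 50 Mb, 19 of 4177 windows were listed and the groups overlapped.

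Gene-rich chromatin held a larger part of the far contacts in both MEF libraries than in both ES libraries. Of the 120 far bins of 1 Mb, 57 had more than the median of 7 protein-coding genes and were called gene-rich, and the other 63 gene-poor. Gene-rich bins held 43.2% and 44.1% of far counts in ES cells, against 52.5% and 53.7% in MEFs, a difference of -9.46 percentage points (exact permutation p = 0.333). Per Mb, between 1 and 5 Mb, gene-rich bins held 0.994 and 1.06 times as much as gene-poor bins in ES cells and 1.5 and 1.47 times in MEFs. Beyond 5 Mb the ratios were 0.959 and 0.937 in ES cells, against 1.23 and 1.43 in MEFs. Of the listed counts, gene-rich bins at 1 to 5 Mb held 6.12% and 6.62% in ES cells, against 6.41% and 5.72% in MEFs. The groups overlapped in this share. Gene-poor bins there held 8.33% and 8.47% in ES cells, against 5.79% and 5.26% in MEFs. Over the library totals, these gene-rich bins held 11.8 and 12.6 counts per 1000 per Mb in ES cells, against 14.5 and 13 in MEFs. A higher MEF level in gene-rich bins of this zone thus rests on the denominator. In both zones the ES ratios lay near 1 and both MEF ratios lay above both ES ratios.

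This order was the same at equal depth (difference -8.55), among windows with counts in all 4 libraries (-8.30), with changes in place of counts (-8.66), and without olfactory receptor genes (-9.75). With gene density taken in 100 kb bins it was smaller, and the groups overlapped, at 25.3% and 20.7% in ES cells, against 25.0% and 30.0% in MEFs (-4.50). Gene-rich and gene-poor bins also differ in distance from the viewpoint, whose part in the ratio was not tested.

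**Figure D3:**
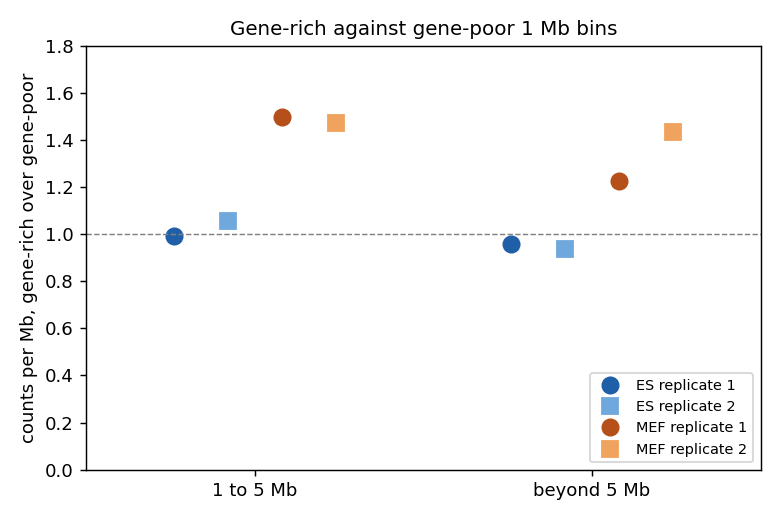
Counts per Mb in gene-rich bins divided by those in gene-poor bins (y axis), at 1 to 5 Mb and beyond 5 Mb (x axis); each point is 1 library and the dashed line marks a ratio of 1. MEF libraries sit between 1.23 and 1.5, all above the ES libraries, which sit between 0.937 and 1.06.

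Olfactory receptor genes are silent in nearly all cells outside the nose and lie in clusters. Of 152 far windows that overlap them, all beyond 5 Mb, 7 were listed (4.61%), against 2.72% of all windows beyond 5 Mb. Of the 152, 108 lie at 5 to 10 Mb on the higher side, where 6 of them were listed, beside 45 of all 500 windows there. The 7 windows held 56 and 75 counts in the ES libraries, and 1 and 64 in the MEF libraries. Per Mb of these genes that was 0.522, 0.239, 0.0483 and 1.42 counts per 1000, against 0.224, 0.152, 0.349 and 0.461 over everything beyond 5 Mb. Only MEF replicate 1 was below its level for the whole zone, most of which lies farther out than these genes. At 5 to 10 Mb on the higher side all windows held 0.680, 0.618, 1.17 and 1.70. The other 44 olfactory windows lie at 10 to 20 Mb on the lower side, where all windows held 0.392, 0.275, 0.792 and 1.25. Of these 44 windows 1 was listed, at Olfr862, with 8 and 5 counts in the ES libraries, and 0 and 7 in the MEF libraries. The olfactory level given above pools both places, so it was not compared with either of them. The part of distance was not tested. Their share of far counts was 0.660%, 0.317%, 0.0552% and 1.59%, and the MEF libraries lay on both sides of the ES libraries (exact permutation p = 1).

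Next, bins were tested one by one. Values in bins of 100 kb were compared by limma on log2(value + 0.2), over all bins of the table with a mean of at least 0.2 per 1000, with Benjamini-Hochberg adjustment at 0.05. Of 131 bins, 12.2% were called (6.11% higher in ES cells, 6.11% higher in MEFs). Of the 111 far bins among them 5 were called (3 with more contact in ES cells, 2 with more in MEFs), a smaller share than the background. The 5 bins had groups that did not overlap, as 52 of the 111 far bins did.

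Both bins next to the 1 Mb boundary on the lower side were higher in ES cells. The bin from 31600001 to 31700000, at Gm18820, had 2.65 and 2.86 counts per 1000 in ES cells, against 0.587 and 0.371 in MEFs. This was a 5.75-fold difference of the means (log2 difference 2.14, SE 0.40, limma adjusted p = 0.00826). The bin from 31500001 to 31600000, at Gm31408, had 4.25 and 4.94 in ES cells, against 1.47 and 0.877 in MEFs, 3.92-fold (log2 difference 1.83, SE 0.35, limma adjusted p = 0.00826). Both ES libraries were about equal in each bin, and neither MEF library came near them. Of the 11 windows listed in the bins, 1 had counts in both MEF libraries. With the replicate number as a block, the first call held (limma adjusted p = 0.0476) and the second did not (0.0525).

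The third ES-higher bin lay 1.95 Mb away within Kirrel3, from 34600001 to 34700000. It held 3.94 and 3.85 counts per 1000 in ES cells, against 2.05 and 1.25 in MEFs (log2 difference 1.18, SE 0.34, limma adjusted p = 0.0499). Other bins of Kirrel3 were not called and did not share 1 order. The bin from 34900001 to 35000000 held 5.52 and 5.10 in ES cells, against 4.92 and 4.18 in MEFs (log2 difference 0.22, adjusted p = 0.663), and the next bin, which also holds St3gal4, held 3.47 and 4.69 in ES cells, against 6.53 and 5.06 in MEFs (log2 difference -0.49, adjusted p = 0.282). The call at 34600001 ended with edgeR (0.0516), at equal depth (0.0578), with a pseudocount of 0.05 (0.0505) and with the replicate block (0.122).

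The MEF-higher bins lay at Cdon and at Septin7. Cdon encodes a cell-surface receptor that binds Hedgehog ligands and takes part in muscle differentiation. Its bin, from 35400001 to 35500000, held 1.95 and 2.22 counts per 1000 in ES cells, against 4.33 and 4.45 in MEFs, 2.10-fold higher in MEFs (log2 difference -1.01, SE 0.29, limma adjusted p = 0.0499). All 10 windows of the bin were listed. Its call ended after rescaling to the counts beyond 1 Mb (0.135), with median-centred values (0.619), with edgeR (0.0516) and in other alternatives. Septin7 encodes a GTP-binding protein of the septin cytoskeleton and lies 7.45 Mb away. Its bin, from 25200001 to 25300000, held 0.340 and 0.280 in ES cells, against 1.32 and 2.06 in MEFs, 5.45-fold higher in MEFs (log2 difference -1.86, SE 0.47, limma adjusted p = 0.0286). This bin rests on 24, 58, 18 and 61 counts in the 4 libraries, and in the tiling shifted by 5 kb its adjusted p was 0.593. Its windows from 25220001, 25260001 and 25290001 had 0 counts in MEF replicate 1. Their listing thus needed counts in MEF replicate 2, a library of the group that is higher here. Without ES replicate 1 or ES replicate 2, none of the 5 calls held (adjusted p from 0.275 to 0.873), and without the intensity trend none did (0.117 to 0.189).

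In bins of 1 Mb, with the same test, 30.9% of 55 bins were called (5.45% higher in ES cells, 25.5% higher in MEFs). Of the 52 far bins 14 were called, 12 of them with more contact in MEFs and 2 with more in ES cells. The ES-higher bins were the bin from 31000001, with Tmem45b, Nfrkb and Prdm10, and the bin from 34000001, with Kirrel3. Of these genes in the bin from 31000001, Tmem45b was higher in both ES libraries and Prdm10 in both MEF libraries, and the groups overlapped at Nfrkb. This bin also holds the called 100 kb bins at Gm31408 and Gm18820, and that from 34000001 the called 100 kb bin within Kirrel3. The 2 bins of 1 Mb are thus not separate from these. The first held 17.8 and 18.6 counts per 1000 in ES cells, against 13.4 and 10.3 in MEFs (log2 difference 0.62, SE 0.19, limma adjusted p = 0.0136). The second held 31.4 and 33.8 in ES cells, against 27.1 and 23.2 in MEFs (log2 difference 0.37, SE 0.14, limma adjusted p = 0.0265), and was not called at equal depth (0.072) or without MEF replicate 2 (0.0574).

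Of the MEF-higher bins, 10 lay beyond 5 Mb. Every listed window has counts in a MEF library, and MEF libraries lacked counts in more far windows than the deeper ES libraries. Sparse windows thus entered largely through MEF counts, the group that is higher in these 10 bins. Depth also differs between the groups and cannot be told apart from cell type in these bins. The bin with the largest log2 difference was that from 49000001, with Ncam1, a neural cell adhesion gene, and Zw10 and Usp28, genes of the kinetochore and of ubiquitin removal. It held 0.156 and 0.174 counts per 1000 in ES cells, against 0.954 and 2.77 in MEFs, 11.3-fold higher in MEFs (log2 difference -2.34, SE 0.50, limma adjusted p = 0.000125). These values rest on 11 and 36 counts in the ES libraries and 13 and 82 in the MEF libraries. The bin had 4 listed windows, and without MEF replicate 2 its adjusted p was 0.0535. The bin from 22000001, at Rp9 and Bbs9, the latter a gene of the cilium, held 0.779 and 0.764 in ES cells, against 2.71 and 2.46 in MEFs (log2 difference -1.52, adjusted p = 0.00592). The bin from 79000001, 46.8 Mb away, holds Col12a1, which encodes a collagen of fibroblasts, with Cox7a2 and Filip1. It held 0.637 and 0.387 in ES cells, against 1.54 and 1.55 in MEFs (log2 difference -1.32, limma adjusted p = 0.0229). This call was lost in 10 of 18 alternatives, among them edgeR (0.0835), equal depth (0.0578), no filter (0.101) and the tiling shifted by 5 kb (0.656).

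Other MEF-higher bins began at 73000001 (Pigb and Unc13c), 41000001 (Ubash3b), 14000001 (Piwil4, Fut4 and Amotl1), 25000001 (Septin7, Herpud2 and Eepd1), 51000001 (no annotated gene in its listed windows) and 40000001 (Gramd1b, Zfp202 and Clmp). Their log2 differences ran from -1.07 to -1.66 and their limma adjusted p from 0.0177 to 0.0481. With edgeR none of these 6 was called (adjusted p from 0.0576 to 0.135). At equal depth the bins from 40000001 and 51000001 had log2 differences of -0.38 (adjusted p = 0.396) and -0.24 (0.465). Of the 14 calls in 1 Mb bins, that of the Ncam1 bin alone held with the replicate block, without ES replicate 1 or without ES replicate 2. The 2 MEF-higher bins nearer than 5 Mb began at 35000001 and 37000001 (log2 differences -0.50 and -0.87), and are named here after their values were seen.

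These calls were made against 0, while the median log2 difference was -0.63 over all 1 Mb bins and -0.24 over all 100 kb bins. Among 1 Mb bins beyond 5 Mb, 39 of 43 were lower in ES cells, but 16 of 43 with median-centred values. In bins of 100 kb, 48 of 53 were lower in ES cells beyond 5 Mb and 24 of 58 at 1 to 5 Mb, and with median-centred values these counts were 30 and 10. The split of 1 Mb calls, 2 higher in ES cells and 12 in MEFs, was 4 and 4 after rescaling to the counts more than 50 kb from the viewpoint. With median-centred values 0 of 52 far bins of 1 Mb were called by limma (11 at an unadjusted p under 0.05). The split of 100 kb calls, 3 and 2, was 5 and 0 with median-centred values. At 1 to 5 Mb, 6 of 9 bins of 1 Mb were higher in ES cells, and 9 of 9 with median-centred values.

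**Figure D4:**
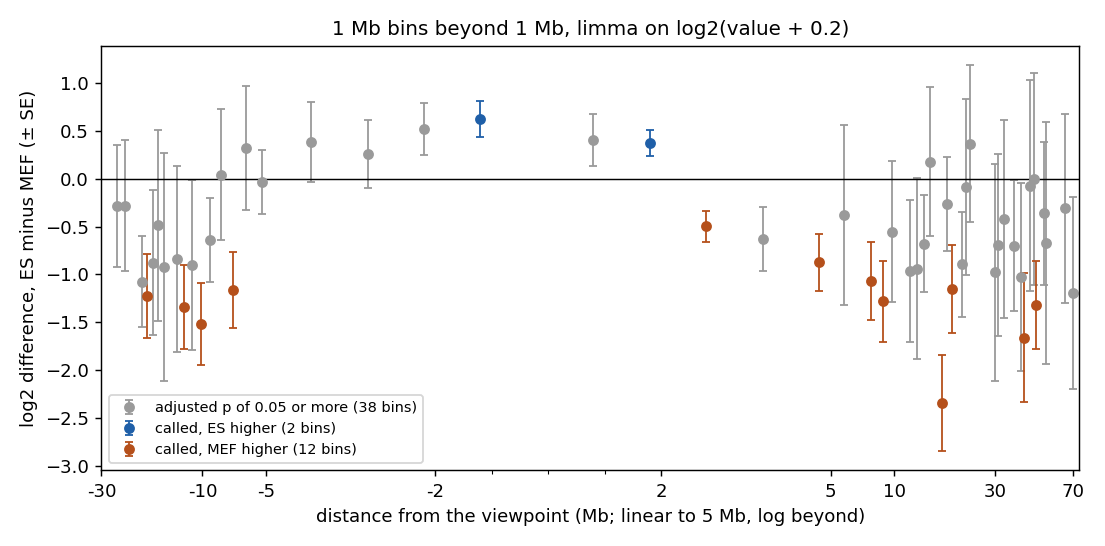
Log2 difference, ES minus MEF, of the 52 tested far bins of 1 Mb (y axis, with SE) against distance from the viewpoint in Mb (x axis, linear to 5 Mb and logarithmic beyond); colours mark bins called by limma. The 2 ES-higher calls lie within 2 Mb, and 10 of the 12 MEF-higher calls lie beyond 5 Mb.

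Contacts that recurred in every library were frequent near the viewpoint and sparse far out. Of 1195 far bins of 100 kb 285 had listed windows, and 102 of these had at least 1 count in each of the 4 libraries, 56 at 1 to 5 Mb and 46 beyond. At 1 to 5 Mb 65% of the bins on the lower side and 75% on the higher side recurred. At 5 to 10 Mb the shares were 20% and 22%, at 10 to 20 Mb 10% and 8%, and beyond 20 Mb 3.09% and 0.557%. A bin whose level was under 0.0734 per 1000, the worth of 1 count in MEF replicate 1, could rarely recur.

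Of the 12 bins with the highest minimum over the libraries, 11 lay on the higher side, between 33700001 and 35500000. The first was the bin of Kirrel3 from 34900001, given above. The second, that of St3gal4, a sialyltransferase gene, with Dcps and Tirap, held 3.70 and 3.66 counts per 1000 in ES cells, against 5.28 and 5.87 in MEFs (log2 difference -0.57, limma adjusted p = 0.197). The bin of Fam118b, Rpusd4, Srpr and Foxred1 held 2.70 and 3.17 in ES cells, against 4.92 and 1.99 in MEFs, and its groups overlapped. On the lower side, the only such bin was that of Prdm10 and Aplp2, with 2.38 and 2.36 in ES cells, against 1.98 and 2.60 in MEFs. These bins were selected by level, so their levels are a description.

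Beyond 5 Mb the highest recurrent bins on the lower side were those of Vps26b, Thyn1, Ncapd3 and Jam3 (5.65 Mb away), Eepd1 (7.15 Mb) and Rp9 (10.3 Mb). Ncapd3 encodes a condensin subunit and Jam3 a junctional adhesion molecule. Their bin held 1.40 and 0.672 counts per 1000 in ES cells, against 0.514 and 0.472 in MEFs (log2 difference 0.77, limma adjusted p = 0.359). On the higher side they were those of Clmp (8.05 Mb), Olfr160 (5.05 Mb) and Col12a1 (46.9 Mb). The Col12a1 bin held 0.368 and 0.155 in ES cells, against 0.660 and 1.01 in MEFs (log2 difference -1.19, limma adjusted p = 0.217). It was also the farthest recurrent bin of the higher side, where 26, 32, 9 and 30 counts stood in the 4 libraries.

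Genes were then read by the lists named in the methods, as counts in the windows that overlap a gene with 10 kb on each side. On the lower side 19 of 21 genes had listed windows, and 0 lay in a called bin of 100 kb, where 4.50% of the tested far bins were called. In bins of 1 Mb, 6 lay in the ES-higher bin from 31000001, so they share 1 call, where 2 of the 52 tested far bins were ES-higher. In 13 of the 19 the groups overlapped, 5 were higher in both ES libraries and 1 in both MEF libraries. Of the 111 tested far bins of 100 kb, 21 were higher in both ES libraries and 31 in both MEF libraries. The highest were Prdm10, a gene of a PR-domain zinc finger protein, with 1.63 and 2.40 counts per 1000 per 100 kb in ES cells, against 3.20 and 2.46 in MEFs, and Aplp2, a relative of the amyloid precursor, with 2.66 and 1.86 in ES cells, against 2.79 and 1.92 in MEFs. Of this list, 10 genes from Spata19 to B3gat1 lie 5.30 to 5.96 Mb away. The median over the genes with listed windows was 0.758 in ES cells and 0.512 in MEFs.

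On the higher side 34 of 35 genes had listed windows, and 2 lay in called bins of 100 kb, Kirrel3 (higher in ES cells) and Cdon (higher in MEFs). Of the tested far bins of 100 kb, 4.50% were called. In bins of 1 Mb, 29 lay in the MEF-higher bins from 35000001 and 37000001, and Kirrel3 also reached into the ES-higher bin from 34000001. These 29 genes share only 2 MEF-higher calls, where 12 of the 52 tested far bins of 1 Mb were MEF-higher. In 25 the groups overlapped, 7 were higher in both MEF libraries and 2 in both ES libraries. Of the 111 tested far bins of 100 kb, 31 were higher in both MEF libraries and 21 in both ES libraries. Neighbouring genes share windows, so their orders are not separate results. The highest was St3gal4, with 4.06 and 4.76 counts per 1000 per 100 kb in ES cells, against 7.12 and 6.82 in MEFs. Dcps, which encodes an enzyme of mRNA cap decay, held 3.38 and 3.78 against 5.87 and 5.95, and Tirap, an adaptor of Toll-like receptors, 2.94 and 3.19 against 5.72 and 4.72. These 3 genes are neighbours and share windows. Kirrel3 as a whole held 3.39 and 3.69 in ES cells, against 3.73 and 2.69 in MEFs, with groups that overlapped. Gm1110, placed on this list, lies on the lower side, 5.80 Mb away. Medians were 0.986 in ES cells and 1.27 in MEFs.

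Genes of the cell types themselves lie far out, where few windows are listed at all. The 7 listed for ES cells, among them Dppa5a, Tdgf1 and Trim71, lie 40.4 to 81.8 Mb away on the higher side and span 30 windows, of which 0 were listed. Of all windows there, 2.07% were listed at 20 to 50 Mb and 0.455% beyond. Of 15 fibroblast and mesenchyme genes 4 had a listed window. Tagln, which encodes a smooth muscle actin-binding protein, held 0 and 0.0725 counts per 1000 per 100 kb in ES cells, against 1.28 and 0.422 in MEFs. These values rest on 0 and 6 counts in the ES libraries and 7 and 5 in the MEF libraries, in 2 listed windows. Col12a1 held 0.230 and 0.0967 in ES cells, against 0.413 and 0.633 in MEFs. In these 2 genes both MEF libraries were above both ES libraries, as they were in 22 of the 52 tested far bins of 1 Mb. Beyond 5 Mb 39 of the 43 tested bins of 1 Mb were higher in MEFs, so this order is not particular to these genes. Cilp held 0.566 and 0.0967 in ES cells, against 0 and 1.75 in MEFs, and Pdgfd, a growth factor gene, 0.0354 and 0.0157 in ES cells, against 0 and 0.0169 in MEFs, so the groups overlapped in both. None of the 4 lay in a called bin of 100 kb, and Col12a1 lay in the called 1 Mb bin given above. Of 130 olfactory receptor genes on the chromosome, 12 had a listed window within 10 kb. Of these 12, 0 lay in a called bin of 100 kb and 6 in MEF-higher bins of 1 Mb. Of the 52 tested far bins of 1 Mb, 12 were MEF-higher. Olfr160, Olfr875, Olfr877, Olfr878 and Olfr881 lay in the bin from 37000001, which also holds Pknox2, and so share 1 call. Olfr986 lay in the bin from 40000001. In all 6 genes the groups overlapped.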

How the data were processed

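Libraries were made from fixed cells by digestion with DpnII and then Csp6I, each followed by ligation, per the labels' protocols. Bowtie 1.0.0, edgeR and the build mm10 appear, with no role, per the submitters' processing notes. The counting of windows is described in no label or file header. The authors deposited 1 table for the Ets1 promoter with values they call CPM, in 10 kb windows that step by 1 kb. All values were whole multiples of 1 step in each library (100% within a tolerance of 0.01 count), so they were read as counts per 1000 of a library total. What that total includes is not stated. Whole reads were recovered from the steps.

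Sums over windows starting at multiples of 10 kb were compared between 2 ES and 2 MEF libraries, shares by exact permutation tests and 95% Wilson intervals, and bins by limma 3.58.1 in R 4.3.3 (lmFit, eBayes with trend; pseudocount 0.2, mean of at least 0.2), two-sided. Each log2 difference is that of ES cells over MEFs on the log2(value + 0.2) scale, which understates changes of low values. edgeR 4.0.16 on recovered counts called 3 far bins of 100 kb and 6 of 1 Mb. The tests were tried on simulated data.

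Replicates differed by more than sampling noise over far windows (chi-square per degree of freedom 7.40 in ES cells and 4.76 in MEFs). Genes came from RefSeq (GRCm38.p6, the assembly that mm10 names). Named were up to 10 called bins per direction and bin size whose groups did not overlap, the 12 recurrent bins with the highest minimum and the 3 highest beyond 5 Mb per side, with up to 4 genes each, and 5 gene lists. One of the named bins is not reported here. The members and lists were chosen with earlier results of these data known. A window set aside for lack of counts in 2 or more libraries was not analysed here. Figures used matplotlib 3.10.9 in Python 3.11.15.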

Additional observations from a re-analysis of the deposited data

How the results depend on the processing

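Reversed differences (ES minus MEF, percentage points) were those of the share beyond 1 Mb among windows with counts in all 4 libraries (-0.92), over library totals (-1.74) and with a 2 Mb boundary (-2.61); of the shares at 1 to 5 Mb (-0.14) and on the lower side (-2.85) among windows with counts in all 4 libraries; and, with changes in place of counts, chosen after seeing the data, of the share beyond 5 Mb (3.57) and the log2 ratio (-0.24). The olfactory share reversed without MEF replicate 2 (0.433). Leaving out 1 library gave 0.283 to 0.806 beyond 1 Mb, 2.57 to 3.79 at 1 to 5 Mb, -3.44 to -1.83 beyond 5 Mb, 3.16 to 5.49 for the lower side, 0.93 to 1.52 for the log2 ratio, -10.04 to -8.88 for gene-rich bins and -1.10 to 0.433 for olfactory genes.

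Calls among far 100 kb bins, 5 in the main setting, were 3 after rescaling to counts beyond 1 Mb, 3 with edgeR, 3 in the shifted tiling and 0 without the trend (limma; 23 at an unadjusted p under 0.05). They were 0 to 31 with 1 library left out: 0 without ES replicate 1 and 0 without ES replicate 2 (limma; 5 and 4 at an unadjusted p under 0.05; edgeR with all libraries called 3), 28 without MEF replicate 1 and 31 without MEF replicate 2. Calls among far 1 Mb bins, 14 in the main setting, were 8 with no filter, 8 rescaled to counts more than 50 kb away, 7 rescaled to counts beyond 1 Mb, 6 with edgeR, 0 median-centred and 0 without the trend (limma; 11 and 11 at an unadjusted p under 0.05). They were 1 to 22 with 1 library left out, lowest without ES replicate 1 or ES replicate 2 (1 each) and highest without MEF replicate 1. A group left with 1 library is assumed to vary like the other. Of 304 alternatives of the 17 named bins, 168 kept call and direction, 136 lost the call and 0 reversed.

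The replicate block left 1 call among 100 kb bins and 1 among 1 Mb bins. The 2 pairs share only a number: deviations of same-numbered libraries correlated at -0.18 over 131 bins of 100 kb and 0.019 over 55 bins of 1 Mb. With crossed pairing, chosen after seeing the data, 6 and 12 bins were called. Depth limits the far windows: 1 count is worth 0.00483 per 1000 in ES replicate 2 and 0.0734 in MEF replicate 1, and a count of 0 allows up to 0.0145 and 0.22.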
